A study of Homo sapiens with 66 samples.

Results

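SR proteins and hnRNP proteins bind newly made RNA and help to decide which exons are kept. The genes described here are 10 SR protein genes (SRSF1 to SRSF7 and SRSF9 to SRSF11), the 2 SR-like genes TRA2A and TRA2B, and 20 genes of the hnRNP group, including SYNCRIP (hnRNP Q). They were chosen by name, and all 32 were found by Ensembl identifier among the 13331 genes of the count table. The 32 genes passed the filter on low counts under both scalings used here.

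RNA was measured by 3' mRNA sequencing in 66 libraries of KBM7, a near-haploid human chronic myeloid leukaemia line, with 3 libraries in each of 22 groups. The treated groups were 9 engineered lines given 500 nM dTAG7, in which the dTAG sits on MED14, MED6, MED10, MED26, MED31, MED28, MED12, MED1 or CDK9 according to the genotype labels, and wild-type cells given 100 nM dBET6, 250 nM THAL-SNS-032 or 500 nM dTAG7. Each of the 10 lines also had a DMSO group, and every group was harvested after 6 h. dTAG7 is a degrader molecule that brings a dTAG fusion protein to an E3 ubiquitin ligase, so the tagged protein is lost while its transcript may stay, and the messenger RNA of the tagged gene is no check of the loss. Of the other degraders, THAL-SNS-032 targets CDK9 and dBET6 targets the BET bromodomain proteins, and their doses differed. Whether a tagged line is a single clone is not given in the labels. The 3 libraries of a group are triplicate wells, and the p-values therefore rest on well-to-well spread, which may be technical.

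SR proteins carry an RNA recognition motif and a tail rich in arginine and serine, and usually promote the use of the exons they bind. hnRNP proteins are a more varied group that coats nascent transcripts, and several of them repress exons, export RNA or control its decay. Many of these genes adjust their own output by including poison exons, whose presence sends the transcript to nonsense-mediated decay. Mediator links transcription factors at enhancers and promoters to RNA polymerase II, CDK9 releases the paused polymerase, and BET proteins help to recruit the elongation machinery.

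Endogenous counts ran from 439261 to 4337368 per library, with 10950 to 72684 spike-in counts. Levels are given as counts per 1000 spike-in counts, which relates them to the spike-in RNA added to each lysate. They are also given as CPM of the endogenous counts, which relates them to the other transcripts. In the DMSO libraries the leukaemic and progenitor genes MYB (mean 540 CPM), PTPRC (305) and ABL1 (109) were the highest of the markers looked up. TAL1 (86.3), GATA2 (83), KIT (79.9) and LMO2 (45.5) were lower. CD33 (23.9), BCR (8.7) and GATA1 (6.12), of the same list, lay below the epithelial keratin gene KRT18 at 27.3 CPM. The T-cell gene CD3E was at 1.37. The log2 ratio of endogenous to spike-in counts was 6.52 in MED6 dTAG7 A, against 6.82 in both other libraries of that group, and counts that rest on this library are also given without it. Relative to spike-ins, total endogenous RNA was 11.3% of DMSO with dBET6, 17.6% with THAL-SNS-032, 19.2% in the CDK9 line and 63.2% in the MED14 line. It was 82.3% in the MED6 line, 86.2% in the MED10 line and 90.6 to 106% in the other comparisons. In such bulk samples fewer cells per well and less RNA per cell cannot be told apart.

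All 32 genes fell in the MED14 line, in the CDK9 line, with THAL-SNS-032 and with dBET6 when scaled to spike-ins (edgeR quasi-likelihood test, Benjamini-Hochberg adjusted p under 0.05). So did 62.7% of the 12515 tested genes in the MED14 line (1.69% rose), 95.3% in the CDK9 line (0.216% rose), 96.2% with THAL-SNS-032 (0.256% rose) and 97.1% with dBET6 (0.416% rose). The counts after CDK9 loss, THAL-SNS-032 and dBET6 are therefore near the background. The median log2 change of the 32 genes was -0.84 in the MED14 line, against -0.69 over all tested genes. It was -2.53 against -2.93 in the CDK9 line, -2.76 against -2.86 with THAL-SNS-032 and -3.55 against -3.67 with dBET6. The summed level of the 32 genes was 874, 882 and 866 counts per 1000 spike-in counts in the MED14 dTAG7 libraries, against 1530, 1727 and 1686 in MED14 DMSO. It was 155, 190 and 197 in the dBET6 libraries and 320, 260 and 323 with THAL-SNS-032, against 1795, 2110 and 1796 in wild-type DMSO. In the CDK9 line it was 330, 314 and 376 with dTAG7, against 1824, 1843 and 1764 with DMSO. The treated and DMSO libraries did not overlap in any of these 4 comparisons.

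**Figure D1:**
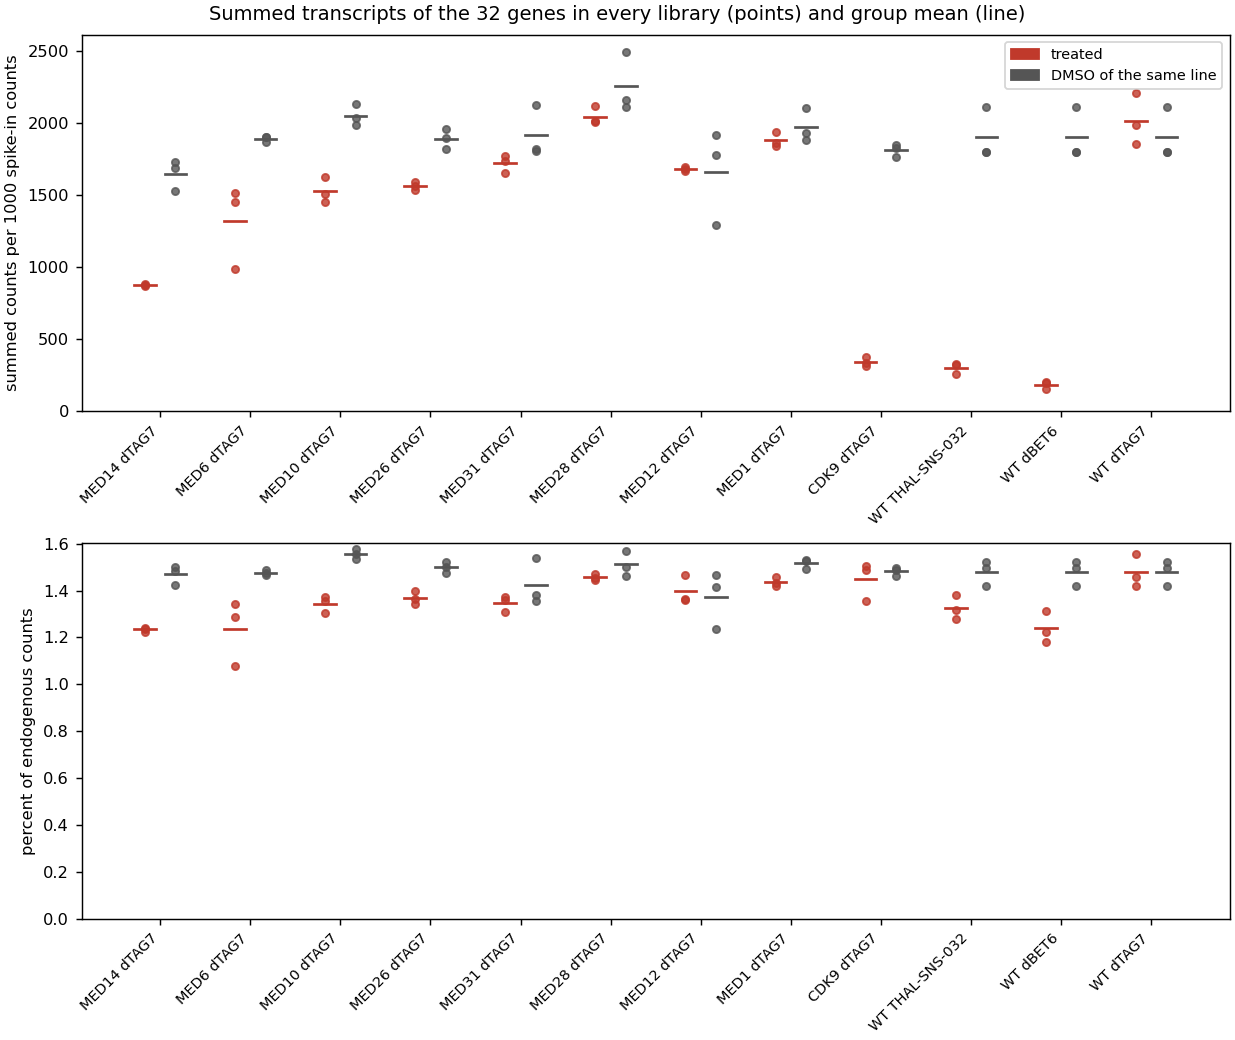
Summed transcripts of the 32 genes in each library (points) with the group mean (line), for the 12 comparisons, treated in red on the left and the DMSO group of the same line in grey on the right, as counts per 1000 spike-in counts (top) and as percent of endogenous counts (bottom). The wild-type DMSO libraries are drawn 3 times because 3 treatments share them, and the MED14 dTAG7 libraries average 1.23% of endogenous counts against 1.47% in MED14 DMSO.

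In the other Mediator lines the number of genes that fell ranged widely. In the MED6 line 20 of the 32 genes fell (18.2% of all tested genes fell and 0.751% rose), with a median of -0.51 against -0.27 over all genes. Without the library MED6 dTAG7 A that count was 7, and the median was not determined without it. In the MED10 line 12 fell (background 18.9% lower and 2.66% higher), with a median of -0.35 against -0.19. In the MED26 line 6 fell (background 2.99% lower, 0.264% higher) and in the MED31 line 5 (background 2.65% lower, 0.495% higher). In the MED28 line 2 fell (background 4.14% lower, 0.783% higher) and in the MED12 line 1 (background 3.32% lower, 1.56% higher). Without MED31 DMSO A the MED31 count was 2, without MED31 dTAG7 A it was 3, and without MED28 DMSO A the MED28 count was 1. Fitted on the libraries of each line alone, the counts were 3 in the MED6 line, 24 in the MED10 line, 11 in the MED26 line, 6 in the MED28 line and 0 in the MED12 line. The share of all genes called was not determined for these single-line fits, so their counts cannot be set against a background. The MED12 count was 2 without MED12 DMSO B and 0 without any of 4 other libraries, namely MED12 dTAG7 A, MED12 dTAG7 C, MED12 DMSO A and MED12 DMSO C. The median log2 change was -0.24 in the MED26 line (all genes -0.14), -0.08 in the MED31 line (all genes -0.04), -0.13 in the MED28 line (all genes -0.04) and 0.04 in the MED12 line (all genes 0.06). None of the 32 genes was called by edgeR or by DESeq2 in the MED1 line (background 0%), where none had an unadjusted p under 0.05 either. The same held for dTAG7 in wild-type cells (background 0%). No gene of the 32 rose against DMSO in any spike-in comparison. HNRNPDL had the lowest change in the MED6, MED10, MED26, MED31 and MED28 lines. Among the genes that fell in the MED6 line the smallest falls were those of SRSF10 (-0.32), a splicing repressor, HNRNPM (-0.38) and HNRNPR (-0.40), and the SRSF10 call was lost without MED6 dTAG7 A or any MED6 DMSO library. In the MED10 line they were those of HNRNPM (-0.30), HNRNPK (-0.40) and HNRNPUL1 (-0.44). There the HNRNPM call was lost without MED10 dTAG7 C or MED10 DMSO A, and the HNRNPK call whichever library was left out.

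**Figure D2:**
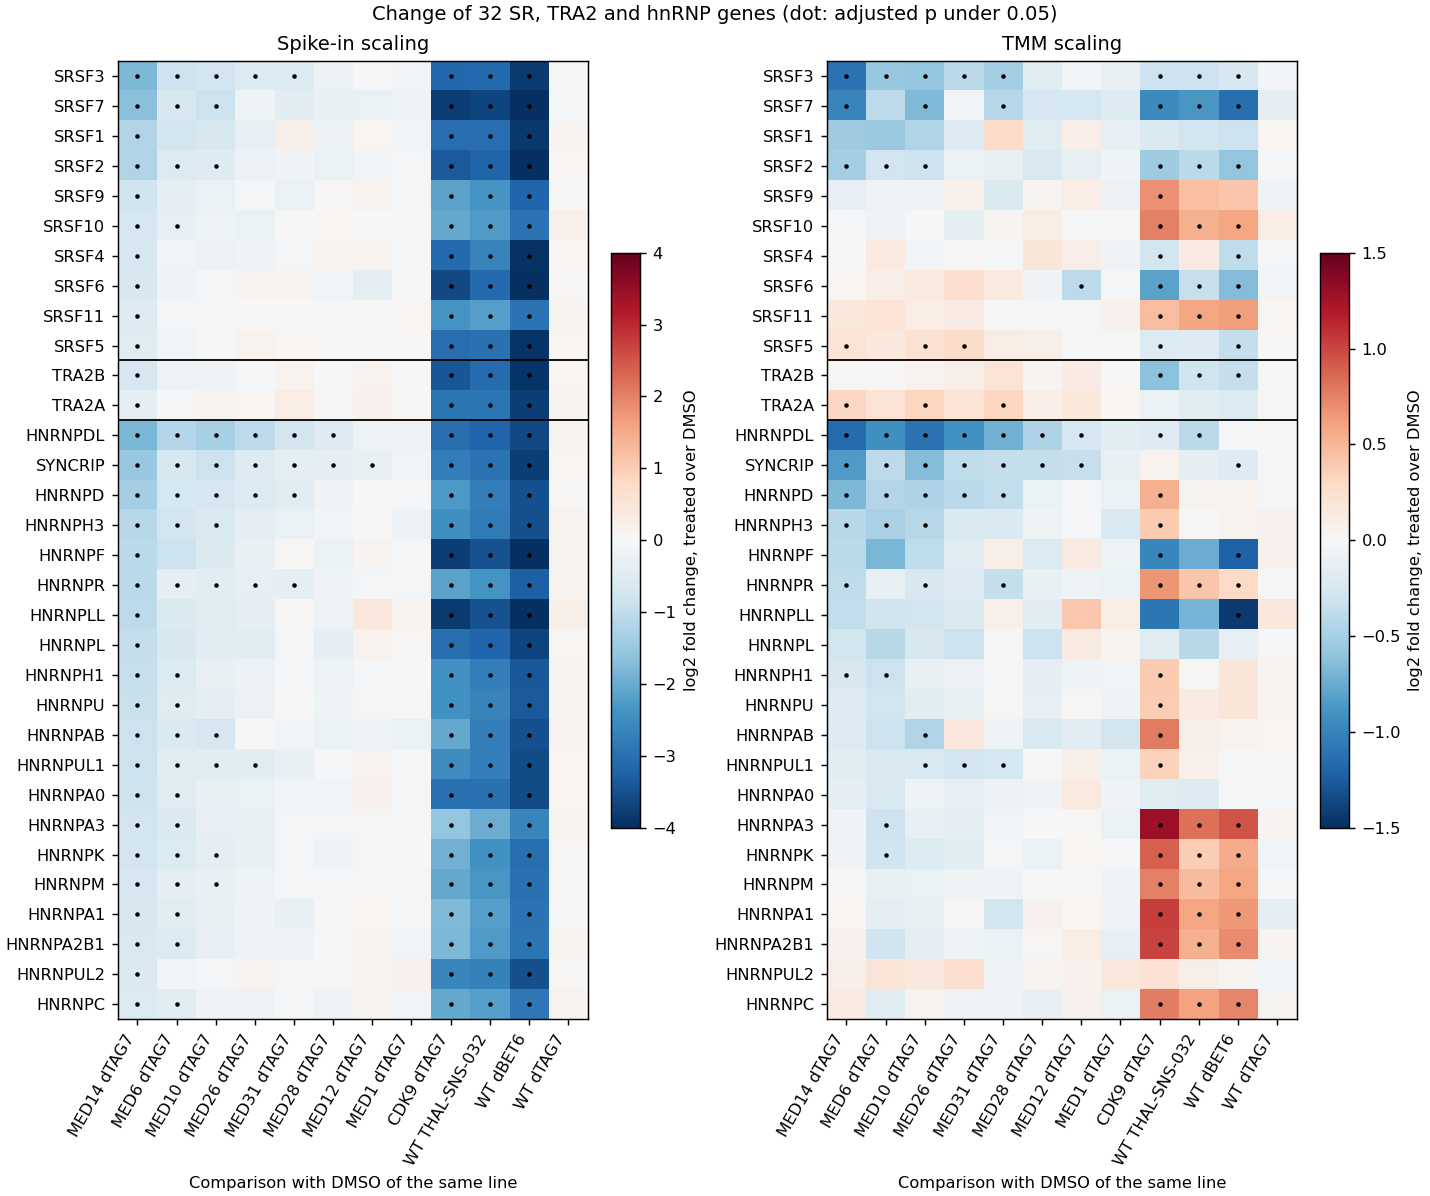
Log2 fold change, treated over DMSO of the same line, of 32 genes (rows, ordered within each family by their MED14 change) in 12 comparisons (columns), with spike-in scaling on the left (colour range -4 to 4) and TMM scaling on the right (colour range -1.5 to 1.5); values past a range have its end colour. Dots mark an adjusted p under 0.05: all 32 genes are marked in the MED14, CDK9, THAL-SNS-032 and dBET6 columns on the left, and the marked genes on the right go in both directions.

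TMM scaling sets the middle of all transcripts to no change, so a gene that falls there fell more than most. Under it, 9 of the 32 genes fell and 2 rose in the MED14 line (16.5% and 13% of 12973 tested genes). In the MED6 line 9 fell (background 3.55% lower, 2.69% higher), and in the MED10 line 10 fell and 2 rose (9.87% and 7.94%). In the MED31 line 7 fell and 1 rose (3.04% and 1.41%), and in the MED26 line 5 fell and 1 rose (1.37% and 0.94%). In the MED28 line 2 fell (background 4.33% lower, 2% higher) and in the MED12 line 3 (background 5.61% lower, 2.96% higher). The number called depended on the libraries used. In the MED14, MED10, MED31 and MED26 lines it was 11, 12, 8 and 6 with all libraries. Leaving out any 1 library of the line lowered it, to 7 to 10, 7 to 9, 4 to 7 and 3 to 5. In the MED6 line it was 5 without MED6 dTAG7 A or MED6 DMSO B, 4 without MED6 DMSO C and 15 without MED6 dTAG7 C. It was 7 in the MED14 line without MED14 dTAG7 C, 7 in the MED10 line without MED10 dTAG7 C or MED10 DMSO A, 4 in the MED31 line without MED31 dTAG7 A and 3 in the MED26 line without MED26 dTAG7 B. Fitted on the libraries of each line alone, TMM called 17 genes in the MED14 line, 1 in the MED6 line, 8 in the MED28 line, 0 in the MED12 line and 1 in the MED1 line. Here too the share of all genes called was not determined. No call was made by edgeR in the MED1 line (background 0.00771% lower and 0% higher; 1 gene had an unadjusted p under 0.05) or for dTAG7 in wild-type cells (background 0%; no gene had an unadjusted p under 0.05). The median TMM change of the 32 genes was -0.15 in the MED14 line, -0.28 in the MED6 line, -0.15 in the MED10 line and -0.10 in the MED26 line, against 0.01, 0.00, 0.02 and 0.00 over all genes. The genes made up 1.23 ± 0.0083% of endogenous counts in MED14 dTAG7 and 1.47 ± 0.040% in MED14 DMSO (SD, n = 3 each). In the MED6 line the share was 1.24 ± 0.14% with dTAG7 and 1.48 ± 0.0094% with DMSO (SD, n = 3 each). It was 1.08, 1.29 and 1.34% in MED6 dTAG7 A, B and C, so library A lowers the mean. The median TMM change of the MED6 line was not determined without that library.

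A few genes fell relative to the others in line after line. HNRNPDL, an RNA-binding paralog of HNRNPD, fell under TMM in 7 of the 8 Mediator lines, and so did SYNCRIP, which binds messenger RNA in nucleus and cytoplasm. Of all 12973 tested genes, 16 (0.123%) fell in 7 or more of these lines. SRSF3, the smallest of the SR proteins, and HNRNPD, known as AUF1 for its binding to AU-rich elements of unstable messages, each fell in 5 lines, as 1.77% of all tested genes did in 5 or more. SRSF7, an SR protein with a zinc knuckle, SRSF2, which acts in both constitutive and regulated splicing, HNRNPH3, HNRNPR and HNRNPUL1 fell in 3 lines each, as 6.71% of all tested genes did in 3 or more. The HNRNPUL1 falls in the MED10, MED26 and MED31 lines were kept in 3, 2 and 1 of the 6 fits that left out a library of the line, and the SRSF2 and HNRNPH3 falls in the MED6 line in 2 and 3 of 6. The other members that fell under TMM were HNRNPH1 in 2 lines and HNRNPA3, HNRNPAB, HNRNPK and SRSF6 in 1 line each, and the remaining 18 genes fell in none. In all, 14 of the 32 genes fell in at least 1 Mediator line, against 20.2% of all tested genes.

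HNRNPDL lies on chromosome 4 at 82422564 to 82430408 (hg38, minus strand, GENCODE 29), close to HNRNPD at 82352498 to 82374503 on the same strand. HNRNPDL had 23.2, 25.3 and 24.6 counts per 1000 spike-in counts in the MED14 dTAG7 libraries, against 79.2, 89.5 and 92.6 in MED14 DMSO. It had 36.4, 52.6 and 48.7 in MED6 dTAG7, against 107, 103 and 102 in MED6 DMSO, and 44.1, 42.5 and 43.6 in MED10 dTAG7, against 106, 112 and 107 in MED10 DMSO. In the MED14, MED6 and MED10 lines treated libraries all lay below DMSO for 68.2%, 30.9% and 33.9% of all tested genes. For HNRNPDL they were far apart in all 3 lines, and MED6 dTAG7 A was the lowest of its group. The log2 changes were -1.84 ± 0.11 (SE, adjusted p = 1.18e-23) in the MED14 line, -1.18 in the MED6 line and -1.32 in the MED10 line, and under TMM -1.16 ± 0.075, -0.92 and -1.11. In the MED26 line HNRNPDL had 48.9, 58.4 and 53.6, against 114, 114 and 105 in MED26 DMSO, and in the MED31 line 59.6, 54.1 and 54.6, against 92.6, 92.0 and 97.9. In the MED28 line it had 85.1, 87.4 and 86.8, against 132, 118 and 117. The groups again did not overlap, and treated libraries all lay below DMSO for 24.1%, 15.8% and 17.4% of all tested genes. The log2 changes of HNRNPDL were -1.05, -0.75 and -0.50. These calls, with either scaling, held when any library was left out. In the MED12 line the libraries overlapped, with 80.6, 83.4 and 66.6 against 98.2, 76.8 and 90.6. There HNRNPDL was called only under TMM (-0.25), and not when MED12 DMSO B or MED12 dTAG7 C was left out. In the MED1 line it had 95.3, 96.5 and 88.6, against 105, 103 and 104, and the change of -0.15 was not called.

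SYNCRIP (chromosome 6, 85607785 to 85643792, minus strand) had 19.7, 21.1 and 18.6 counts per 1000 spike-in counts in MED14 dTAG7, against 53.9, 58.9 and 58.1 in MED14 DMSO. Its log2 change was -1.53 ± 0.097 (SE, adjusted p = 8.81e-22), and -0.85 under TMM. In the MED10 line it had 37.8, 42.0 and 39.3, against 72.6, 72.4 and 69.9 (-0.85). The groups of both lines lay well apart. In the MED6, MED26, MED31 and MED28 lines treated libraries all lay below DMSO for 30.9%, 24.1%, 15.8% and 17.4% of all tested genes. SYNCRIP was among them in each line, with log2 changes of -0.65, -0.52, -0.39 and -0.40. The spike-in call in the MED28 line was lost without MED28 DMSO A, and that in the MED31 line without MED31 DMSO A. SYNCRIP was also the 1 member that fell in the MED12 line with spike-in scaling (-0.31), with 47.9, 50.7 and 45 in MED12 dTAG7 against 65.6, 52.1 and 60.5 in MED12 DMSO. That call was lost when any of 4 of the 6 libraries was left out, whereas under TMM (-0.35) it held without each of them.

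SRSF3 (chromosome 6, 36594353 to 36605600, plus strand) had 16.4, 15.6 and 18.8 in MED14 dTAG7, against 56.7, 63.7 and 56.6 in MED14 DMSO. Its log2 change was -1.79 ± 0.098 (SE, adjusted p = 5.09e-25), and -1.11 under TMM. In the MED26 line it had 46.0, 45.8 and 45.1, against 63.5, 68.5 and 67.5, and in the MED31 line 44.0, 48.1 and 53.0, against 76.0, 68.4 and 66.3. The treated libraries lay below the DMSO libraries in both lines, as for 24.1% and 15.8% of all tested genes. The log2 changes of SRSF3 were -0.54 each. In the MED12 line SRSF3 had 56.7, 60.7 and 63.1, against 65.1, 52.9 and 62.7, and the groups overlapped (log2 change -0.00, not called). SRSF7 (chromosome 2, 38743599 to 38751494, minus strand) had 12.8, 12.7 and 12.3 in MED14 dTAG7, against 37.8, 41.6 and 41.7 in MED14 DMSO, a log2 change of -1.68 ± 0.17 (SE, adjusted p = 2.48e-12), and -0.99 under TMM. Its TMM fall in the MED31 line (-0.42) was lost without MED31 DMSO A, MED31 dTAG7 A or MED31 dTAG7 C.

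**Figure D3:**
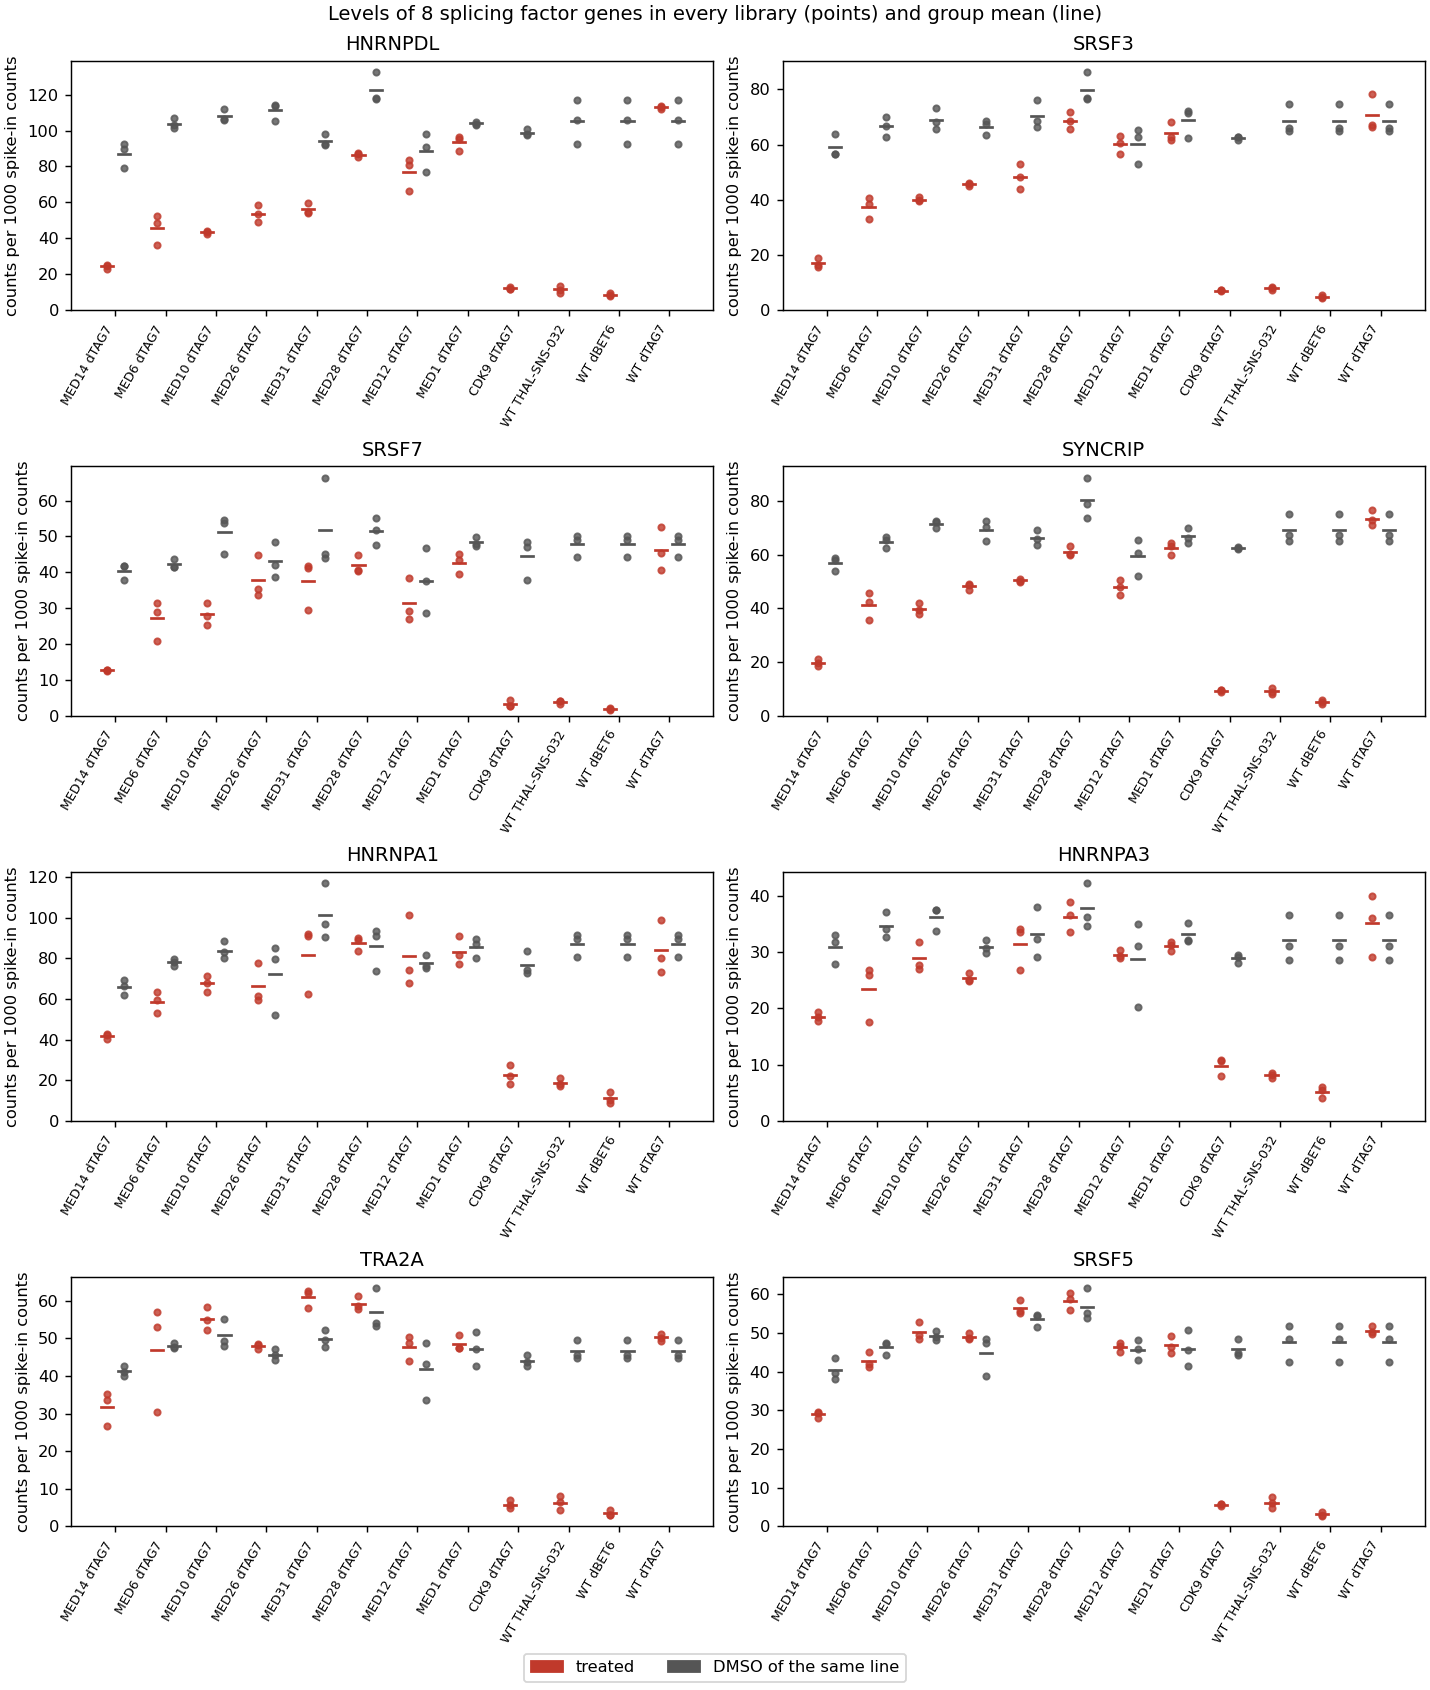
Counts per 1000 spike-in counts of 8 genes in every library (points) with group means (lines), treated in red on the left and DMSO of the same line in grey on the right, on axes that start at 0. HNRNPDL, SRSF3 and SYNCRIP lie below DMSO in the MED14, MED6, MED10, MED26 and MED31 lines, whereas TRA2A and SRSF5 lie below DMSO without overlap in the MED14 line and not in the MED10, MED26 or MED31 lines.

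The promoter windows of the genes with the deepest falls in the MED14 line are shown beside that of SRSF5, whose fall was among the smallest. Each is a window of 300 bases around a RefSeq transcription start (build GRCh38.p14), most of it upstream, written 5′ to 3′ on the gene's strand. Capitals mark CACGTG, an E-box that reads the same on both strands, and TATAAA on either strand, the core of a TATA box. RefSeq windows were found for 29 of the 32 genes, and the start used in KBM7 is not known from these data.
HNRNPDL, chr4:82430176-82430475, minus strand: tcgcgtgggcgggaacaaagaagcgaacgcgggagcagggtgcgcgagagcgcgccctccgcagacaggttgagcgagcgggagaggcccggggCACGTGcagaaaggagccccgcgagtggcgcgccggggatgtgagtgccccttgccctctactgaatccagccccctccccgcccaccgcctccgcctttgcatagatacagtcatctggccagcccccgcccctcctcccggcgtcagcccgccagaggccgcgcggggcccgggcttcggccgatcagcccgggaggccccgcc
SYNCRIP, chr6:85643821-85644120, minus strand: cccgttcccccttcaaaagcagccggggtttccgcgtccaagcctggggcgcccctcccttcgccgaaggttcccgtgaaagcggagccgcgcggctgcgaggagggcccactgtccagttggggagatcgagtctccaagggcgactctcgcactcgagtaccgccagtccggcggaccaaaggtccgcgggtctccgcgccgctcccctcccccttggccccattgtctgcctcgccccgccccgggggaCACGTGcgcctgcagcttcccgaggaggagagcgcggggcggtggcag
HNRNPD, chr4:82373942-82374241, minus strand: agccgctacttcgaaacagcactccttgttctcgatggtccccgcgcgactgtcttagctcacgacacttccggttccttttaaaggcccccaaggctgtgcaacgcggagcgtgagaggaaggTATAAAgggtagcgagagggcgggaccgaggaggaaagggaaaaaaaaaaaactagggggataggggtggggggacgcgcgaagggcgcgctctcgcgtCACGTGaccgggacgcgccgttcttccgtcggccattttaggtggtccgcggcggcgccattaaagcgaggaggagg
SRSF3, chr6:36594112-36594411, plus strand: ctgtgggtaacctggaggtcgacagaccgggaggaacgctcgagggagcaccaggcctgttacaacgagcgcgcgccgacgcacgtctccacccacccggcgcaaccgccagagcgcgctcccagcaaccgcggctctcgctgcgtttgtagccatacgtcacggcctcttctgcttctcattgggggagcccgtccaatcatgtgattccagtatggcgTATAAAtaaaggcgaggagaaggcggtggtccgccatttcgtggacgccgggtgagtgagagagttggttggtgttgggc
SRSF7, chr2:38751312-38751611, minus strand: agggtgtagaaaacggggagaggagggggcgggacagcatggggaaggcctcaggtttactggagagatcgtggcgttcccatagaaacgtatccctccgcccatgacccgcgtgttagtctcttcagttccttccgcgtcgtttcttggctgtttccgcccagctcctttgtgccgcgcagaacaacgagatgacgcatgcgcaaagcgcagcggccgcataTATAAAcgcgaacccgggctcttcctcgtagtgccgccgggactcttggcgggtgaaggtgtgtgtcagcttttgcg
SRSF5, chr14:69766892-69767191, plus strand: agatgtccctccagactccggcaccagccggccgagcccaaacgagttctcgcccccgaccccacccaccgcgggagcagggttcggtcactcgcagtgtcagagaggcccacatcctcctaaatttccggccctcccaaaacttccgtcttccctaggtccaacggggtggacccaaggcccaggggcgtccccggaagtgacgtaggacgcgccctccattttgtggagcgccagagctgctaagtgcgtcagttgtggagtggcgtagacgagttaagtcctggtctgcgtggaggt

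The printed windows of SRSF3 and SRSF7 held TATAAA at positions -30 and -27 from the start. The HNRNPD window held TATAAA at -126 and CACGTG at -27. The printed HNRNPDL window held CACGTG at -156 and the SYNCRIP window held it 2 bases after the start. The SRSF5 window held neither. SRSF7 and HNRNPDL each have another RefSeq window that is not printed. That of SRSF7 held neither motif, and that of HNRNPDL held CACGTG at -127. Over the 42 windows of the 29 genes, CACGTG was in 8 (19.0%), which belong to HNRNPA3, HNRNPD, HNRNPDL, HNRNPH3, HNRNPM, HNRNPUL1 and SYNCRIP, against 7.26% of 35116 RefSeq windows of the same length. TATAAA was in 6 of the 42 (14.3%), those of HNRNPAB, HNRNPC, HNRNPD, SRSF11, SRSF3 and SRSF7, against 11.5% of all windows. The median GC content was 65.5% in the windows of the 29 genes and 58.7% in all windows. Of the 7 genes with CACGTG, HNRNPA3, HNRNPM and HNRNPUL1 did not pass the test for a fall under TMM in the MED14 line, and of the 6 with TATAAA, HNRNPAB, HNRNPC and SRSF11 did not. The same windows were searched on both strands for 7 other motifs. GGGCGG was in 64.3% of the 42 windows (45% of all), CCAAT in 45.2% (34.6%) and CCGGAAG in 11.9% (10.3%), and TGACGTCA, the NRF1 motif, AAGATGGC and the ZNF143 motif were in none (1.85%, 1.24%, 2.89% and 0.248% of all).

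TRA2A and SRSF5 stood at the other end. TRA2A, which activates exons through purine-rich enhancers, had 33.5, 26.6 and 35.1 counts per 1000 spike-in counts in MED14 dTAG7, against 41.2, 42.8 and 39.9 in MED14 DMSO. The groups did not overlap, but the log2 change of -0.37 ± 0.14 (SE, adjusted p = 0.0166) was the smallest fall of the 32 genes, and its call was lost without MED14 DMSO B or MED14 dTAG7 B. As CPM it had 476, 373 and 497 in MED14 dTAG7, against 383, 372 and 351 in MED14 DMSO, so 1 treated library lay within the DMSO range. Under TMM TRA2A rose in the MED14, MED10 and MED31 lines, by 0.31, 0.32 and 0.32 on the log2 scale. The MED10 call held without each library, the MED14 call was lost without MED14 dTAG7 C, and the MED31 call without MED31 DMSO B, MED31 DMSO C or MED31 dTAG7 A. SRSF5, an SR protein with a pair of RNA recognition motifs, had 29.5, 28.1 and 29.2 in MED14 dTAG7, against 38.2, 43.5 and 39.7 in MED14 DMSO (log2 change -0.48 ± 0.098, SE). SRSF11 fell by 0.51 on the same scale and had no TMM call in the MED14 line (0.17). The TMM rises of SRSF5, of 0.20, 0.23 and 0.27 in the MED14, MED10 and MED26 lines, were each lost without at least 4 of the 6 libraries in turn.

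The dTAG7 effect differed among the 8 Mediator lines for 27 of the 32 genes with spike-in scaling (F test in edgeR, 45.6% of all tested genes) and for 7 under TMM (12.5% of all). The 7 were HNRNPDL (adjusted p = 1.93e-15), SRSF3 (7.86e-13), SYNCRIP (1.73e-07), HNRNPD, SRSF7, SRSF6 and HNRNPUL1. The TMM changes of SRSF6 ran from -0.39 in the MED12 line, where it fell, to 0.26 in the MED26 line, where it was not called. In the MED12 line it had 20.4, 22.2 and 16.9 counts per 1000 spike-in counts with dTAG7, against 26.9, 21.2 and 27.6 with DMSO, and the libraries overlapped. Over the 32 genes the log2 changes in the MED14 and MED10 lines ran together (Pearson 0.925, Spearman 0.922, n = 32), as those in the MED10 and MED6 lines did (0.903 and 0.916). Over all 12515 genes Pearson was 0.621 and 0.456. Each gene's points share the libraries of a comparison, so these values describe the libraries.

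The effect of dTAG7 in the MED14 line was lower than in wild-type cells for all 32 genes with spike-in scaling (background 56.7%) and for 7 under TMM (background 10.4%). These 7 were HNRNPDL (-1.18 ± 0.10, SE, adjusted p = 4.39e-15), SRSF3 (-1.06 ± 0.11, 6.25e-13), SYNCRIP (-0.85 ± 0.094, 5.02e-11), SRSF7, HNRNPD, SRSF2 and HNRNPR. The 2 TMM rises of the MED14 line, TRA2A and SRSF5, did not pass this test.

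After CDK9 loss and with the degraders in wild-type cells the order of the genes differed in part from that in the MED14 line. Over the 32 genes the spike-in changes in the MED14 and CDK9 lines had a Pearson correlation of 0.356 (Spearman 0.327). Both were 0.254 over all genes. For the MED14 line and dBET6 they were 0.4 and 0.38, against 0.31 and 0.308 over all genes. In the CDK9 line the deepest spike-in falls were those of HNRNPLL (log2 change -3.84), HNRNPF (-3.78), which binds G-runs, and SRSF7 (-3.77). The shallowest were those of HNRNPA3 (-1.54), HNRNPA1 (-1.77) and HNRNPA2B1 (-1.80), members of the abundant A/B group that often represses exons. HNRNPLL, an HNRNPL paralog that controls CD45 exons in T cells, rested on few reads, with counts of 2, 5 and 2 in CDK9 dTAG7 against 10, 15 and 44 in CDK9 DMSO. Its change ranged from -4.72 to -2.96 when each library was left out. SRSF7 had 2.81, 2.58 and 4.38 counts per 1000 spike-in counts in CDK9 dTAG7, against 48.5, 37.9 and 47.1 in CDK9 DMSO. HNRNPA3 had 10.6, 8.01 and 10.8, against 29.5, 29.1 and 28.0. HNRNPF had 6.27, 6.54 and 8.79, against 101, 106 and 90.0. All 3 genes were lower in every treated library, as were 93.3% of all tested genes. SRSF7 kept a much smaller part of its DMSO level than HNRNPA3.

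Under TMM 9 of the 32 genes fell and 16 rose in the CDK9 line (27% and 20.6% of all tested genes). The families differed in their counts. Of the 10 SR genes 6 fell (SRSF2, SRSF3, SRSF4, SRSF5, SRSF6 and SRSF7) and 3 rose (SRSF9, SRSF10 and SRSF11), of the TRA2 pair TRA2B fell, and of the 20 hnRNP genes 2 fell (HNRNPDL and HNRNPF) and 13 rose. The median TMM change was 0.28 over the 32 genes and -0.09 over all genes. HNRNPA3 rose by 1.28 ± 0.10 (SE, adjusted p = 4.18e-18), HNRNPA1 by 1.04 ± 0.18 (4.67e-06) and HNRNPA2B1 by 1.01 on the log2 scale. As CPM, HNRNPA3 had 478, 346 and 432 in CDK9 dTAG7, against 241, 237 and 232 in CDK9 DMSO. HNRNPA1, a repressor of exon inclusion, had 990, 785 and 1098, against 606, 589 and 694. Both rises are relative to the other transcripts, since both genes fell per spike-in. In the opposite direction SRSF7 had 127, 112 and 175 CPM, against 396, 307 and 391 (TMM change -0.96), and SRSF6, which acts in alternative exon choice, had 76.3, 93.3 and 101, against 209, 207 and 205 (-0.81). The groups did not overlap for any of these 4 genes, but the share of all genes without overlap as CPM was not determined. The summed share of endogenous counts was 1.19 ± 0.067% in CDK9 dTAG7 and 1.10 ± 0.018% in CDK9 DMSO for the hnRNP genes, and 0.226 ± 0.0100% and 0.317 ± 0.0095% for the SR genes (SD, n = 3 each). The hnRNP shares overlapped, with 1.108% in CDK9 dTAG7 B and 1.121% in CDK9 DMSO B. In wild-type cells the mean hnRNP share was 1.02% with THAL-SNS-032 and 0.976% with dBET6, against 1.09% with DMSO. The mean SR share was 0.259% and 0.224%, against 0.320%.

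**Figure D4:**
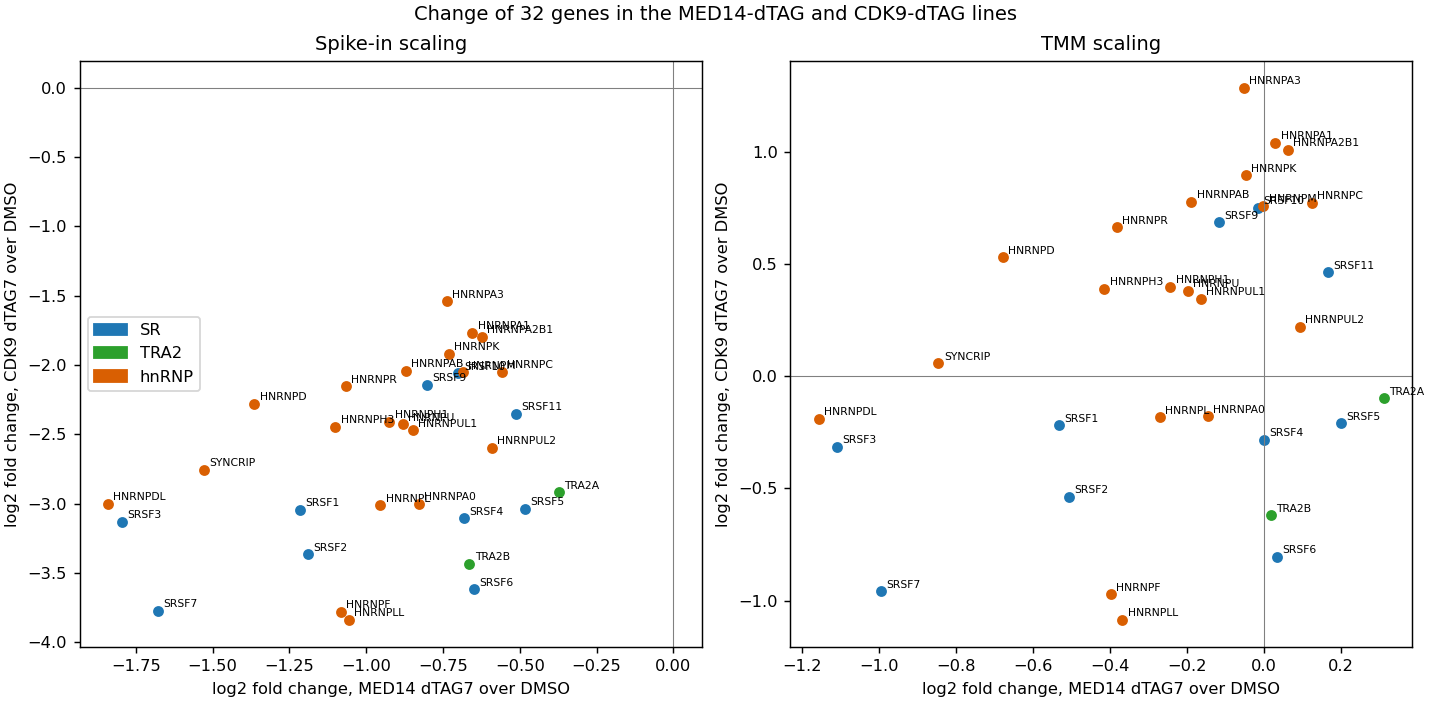
Log2 fold change of the 32 genes in the CDK9 line (vertical) against the MED14 line (horizontal), both dTAG7 over DMSO, with spike-in scaling (left) and TMM scaling (right), coloured by family. On the right HNRNPDL, SRSF3 and SYNCRIP lie far to the left with CDK9 changes of -0.19, -0.31 and 0.06. SRSF7 also lies far to the left, with a CDK9 change of -0.96, the lowest of the SR genes. HNRNPA3, HNRNPA1 and HNRNPA2B1 lie at the top with MED14 changes between -0.05 and 0.06.

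THAL-SNS-032 and dBET6 in wild-type cells are compared with the same 3 DMSO libraries, so their changes are not independent of each other. Under TMM 6 of the 32 genes fell and 9 rose with THAL-SNS-032 (background 16.1% and 13.5%), and 10 fell and 9 rose with dBET6 (23.6% and 17.6%). With THAL-SNS-032 the SR genes SRSF2, SRSF3, SRSF6 and SRSF7 fell with TRA2B and HNRNPDL. SRSF10, SRSF11, HNRNPA1, HNRNPA2B1, HNRNPA3, HNRNPC, HNRNPK, HNRNPM and HNRNPR rose. With dBET6 SRSF2 to SRSF7, TRA2B, HNRNPF, HNRNPLL and SYNCRIP fell, and SRSF10, SRSF11, HNRNPA1, HNRNPA2B1, HNRNPA3, HNRNPC, HNRNPK, HNRNPM and HNRNPR rose. HNRNPA3 had 319, 375 and 370 CPM with dBET6 and 369, 384 and 327 with THAL-SNS-032, against 227, 263 and 260 in wild-type DMSO. SRSF7 had 109, 132 and 136 CPM with dBET6 and 180, 157 and 162 with THAL-SNS-032, against 349, 360 and 409. The treated libraries lay above DMSO for HNRNPA3 and below it for SRSF7 under both compounds. The share of all genes without overlap as CPM was not determined. TMM changes with dBET6 and THAL-SNS-032 were 0.94 and 0.82 for HNRNPA3 and -1.13 and -0.88 for SRSF7. Per spike-in the deepest falls with dBET6 were those of HNRNPLL (-4.91), HNRNPF (-4.77) and SRSF7 (-4.69), and with THAL-SNS-032 those of SRSF7 (-3.67), HNRNPF (-3.50) and HNRNPLL (-3.48). The shallowest were those of HNRNPA3 (-2.63), HNRNPC (-2.85) and HNRNPA2B1 (-2.89) with dBET6, and of HNRNPA3 (-1.99), SRSF11 (-2.20) and HNRNPC (-2.21) with THAL-SNS-032. HNRNPA1 rose by 0.65 with dBET6 and by 0.60 with THAL-SNS-032, the second not without THAL-SNS-032 B. HNRNPLL had 2, 3 and 3 counts with dBET6, against 36, 40 and 53 in wild-type DMSO, and its TMM fall of 1.44 on the log2 scale was lost without dBET6 B.

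Tagged CDK9 loss and THAL-SNS-032 act on the same kinase, in different lines and with different compounds. Their spike-in effects differed for 1 of the 32 genes, HNRNPD, which was less reduced in the CDK9 line (difference 0.48 ± 0.145, SE, adjusted p = 0.0491; background 0.439% higher and 2.33% lower). When each of the 12 libraries was left out in turn, 1 gene was called without CDK9 dTAG7 B, 2 without THAL-SNS-032 B and none without any of the others. Under TMM HNRNPK (0.53), HNRNPD (0.48) and HNRNPA3 (0.46) differed (background 1.87% higher). HNRNPD had 24.1, 22 and 27.9 counts per 1000 spike-in counts in CDK9 dTAG7 against 122, 119 and 119 in CDK9 DMSO, and 19.8, 19.6 and 19.2 with THAL-SNS-032 against 126, 147 and 126 in wild-type DMSO. Over the 32 genes the 2 sets of changes had a Pearson correlation of 0.924 and a Spearman correlation of 0.882 (n = 32; 0.685 and 0.711 over all genes). Levels with dBET6 were lower than with THAL-SNS-032 for 30 of the 32 genes per spike-in (background 53%; HNRNPL and SRSF1 were not called), with a median of -0.78 against -0.82 over all genes. Under TMM 1 was higher, HNRNPDL (0.38), and 1 lower, SRSF4 (-0.51), against 2.02% and 2.7% of all genes.

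The MED14 and CDK9 effects were compared directly in the same fit. Per spike-in all 32 genes fell less in the MED14 line than in the CDK9 line (background 88.3%). Under TMM the MED14 effect was lower than the CDK9 effect for 19 genes and higher for 4 (background 15% and 20%), with a median of -0.61 over the 32 genes and 0.06 over all genes. HNRNPA3 (difference -1.34 ± 0.14, SE, adjusted p = 2.68e-12), HNRNPD (-1.21 ± 0.13, 1.14e-11) and HNRNPR (-1.04 ± 0.13) were lowest. The 4 that were higher were SRSF6 (0.84 ± 0.15, adjusted p = 6.67e-06), TRA2B (0.64), SRSF5 (0.41) and TRA2A (0.41). HNRNPDL, SRSF3 and SYNCRIP, the genes most affected by the Mediator lines, were also among the 19, with differences of -0.97, -0.80 and -0.90.

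Close paralogs did not always move together. HNRNPD and HNRNPDL both fell in the MED14 line, HNRNPD with 45.1, 42.0 and 41.5 counts per 1000 spike-in counts against 110 ± 11 (SD, n = 3) in DMSO, and their TMM changes there were -0.68 and -1.16. In the CDK9 line HNRNPD rose by 0.53 under TMM and HNRNPDL fell by 0.19. TRA2B, the closest relative of TRA2A, had 20, 22.4 and 19.5 counts per 1000 spike-in counts in MED14 dTAG7, against 31.0, 33.7 and 33.1 in MED14 DMSO. In the CDK9 line TRA2B had 2.85, 3 and 4.18 with dTAG7, against 37.6, 37.4 and 32.6 with DMSO, and TRA2A had 5.57, 4.80 and 7, against 43.8, 45.7 and 42.5. Both were low in every treated library, and their TMM changes were 0.31 for TRA2A and 0.02 for TRA2B in the MED14 line and -0.10 and -0.62 in the CDK9 line. HNRNPH1, a G-run binder, had 50.5, 48.2 and 52.2 in MED14 dTAG7, against 94.8, 95.8 and 96.3 in MED14 DMSO, and HNRNPH3 had 13.4, 13.3 and 11.5, against 23.4, 29.2 and 29.3. Neither gene's groups overlapped, as for 68.2% of all tested genes, which lay below DMSO. Both genes fell, by 0.24 and 0.41 under TMM, but the HNRNPH1 call was lost whichever library was left out. HNRNPUL1 and HNRNPUL2, relatives of the nuclear scaffold protein HNRNPU, had TMM changes of -0.16 and 0.09 without a call. Per spike-in HNRNPUL1 had 13.3, 13.3 and 14.0 in MED14 dTAG7, against 22.7, 25.5 and 24.8, and HNRNPUL2 had 8.14, 8.85 and 7.73, against 11.1, 14.0 and 12. SRSF4, SRSF5 and SRSF6, which share a domain layout, all lay far below DMSO in the CDK9 line. SRSF4 had 1.73, 1.79 and 2.19 in CDK9 dTAG7, against 16.3, 16.9 and 15.6 in CDK9 DMSO, SRSF5 had 5.64, 5.27 and 5.77, against 48.4, 44.4 and 44.8, and SRSF6 had 1.69, 2.16 and 2.52, against 25.6, 25.5 and 24.6. Their log2 changes were -3.11, -3.04 and -3.62. HNRNPL, which binds CA-rich RNA, had 3.62, 3.53 and 3.95, against 30.4, 33.0 and 26.4, and had a log2 change of -3.01, and that of HNRNPLL was -3.84. The differences between paralogs were not tested.

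The remaining members are described here. SRSF1, the founding SR protein, fell per spike-in in the MED14 line by 1.22 on the log2 scale. Its difference from the wild-type dTAG7 effect had an SE of 0.51 on that scale, against 0.13 for SRSF3. SRSF1 was not called under TMM in any comparison. HNRNPA0, HNRNPL and HNRNPUL2 likewise had no TMM call. HNRNPC, which binds U-tracts and coats nascent RNA, fell by 0.56 in the MED14 line and by 2.85 with dBET6 per spike-in, and rose under TMM by 0.77 in the CDK9 line, 0.60 with THAL-SNS-032 and 0.74 with dBET6. HNRNPK, a C-rich RNA binder, HNRNPM, HNRNPU, HNRNPAB and SRSF9 rose in the CDK9 line under TMM by 0.89, 0.76, 0.38, 0.78 and 0.68. Between the 10 DMSO groups 16 of the 32 genes differed per spike-in and 6 under TMM, against 40.5% and 26.5% of all tested genes. The 6 were HNRNPLL, HNRNPDL, HNRNPUL1, SRSF2, HNRNPA0 and HNRNPH1. HNRNPLL ran from 1.08 ± 0.43 counts per 1000 spike-in counts in CDK9 DMSO to 3.57 ± 0.75 in MED31 DMSO (SD, n = 3 each).

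Other splicing genes, from lists written for this description, gave a mixed picture under TMM. Over all tested genes 16.5% fell and 13% rose in the MED14 line. There 8 of 24 tested U1 and U2 snRNP genes fell and none rose, led by the branch point factor SF1 (-0.56). Of 34 tri-snRNP and catalytic genes 5 fell and 7 rose, among them SLU7 (0.78), a factor of the second splicing step. Of 40 other splicing regulators 10 fell and 6 rose, with TARDBP (-1.13) and PCBP1 (-0.73) lowest and MBNL2 (1.15) highest. Of 9 SR protein kinase and import genes 4 fell and 3 rose, including CLK1 (0.66) and CLK3 (0.62), kinases that phosphorylate SR proteins, and PRPF4B (-0.50). Of 17 exon junction and nonsense-mediated decay genes 4 fell and 1 rose. The medians of these lists lay between -0.25 and -0.03, against -0.15 for the 32 SR, TRA2 and hnRNP genes and 0.01 for all genes. In the CDK9 line, where 27% of all tested genes fell and 20.6% rose, 10 U1 and U2 snRNP genes rose and 4 fell, with the Sm protein gene SNRPD2 at 1.17, 9 tri-snRNP and catalytic genes rose and 9 fell, and 18 of the other regulators rose and 9 fell, with PNN at 1.19 and RBM5 at -1.41. Of the kinase and import genes 2 fell and 1 rose there, led by CLK4 (-1.39), and of the decay genes 5 fell and 1 rose. U2AF1 and LSM2 were not analysed here.

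Some values rest on how reads were assigned. GENCODE 29 lists 74 processed copies of HNRNPA1, 16 of HNRNPA3 and 9 of HNRNPC, so reads of these genes may be split or lost. Exons of HNRNPD, HNRNPH3, HNRNPUL1, HNRNPU, HNRNPA2B1, HNRNPAB, SRSF2 and SRSF9 overlap those of counted neighbours on the opposite strand, and the strand setting of the counting is not given in the sources used here. Most neighbours had far fewer counts, such as MFSD11 beside SRSF2, with means of 33.1 and 698 counts per library. CBX3 beside HNRNPA2B1 averaged 1630 counts, against 4070 for HNRNPA2B1, and was not called under TMM in the MED14 line (-0.17) but rose in the CDK9 line (0.64). Read from the 3' end, these counts do not tell productive messages from isoforms with a poison exon. Exons of SRSF1, HNRNPUL2, HNRNPL and SYNCRIP also overlap those of protein-coding entries on the same strand, by 1890, 2391, 561 and 343 bases. Those entries are not among the counted genes, and whether shared reads were lost was not tested.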

How the data were processed

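RNA from 66 wells of KBM7 cells was measured by QuantSeq 3' sequencing. Spike-in RNAs were added per lysate, meant to relate levels to cell number, per the labels' protocols. The deposited table holds raw counts per gene that the authors made; the tools listed in the submitters' processing notes are bedtools 2.26.0, HTSeq 0.6.0 and STAR 2.5.2b, and the strand setting is not given in the sources used here. Endogenous counts ran from 439261 to 4337368 per library, which limits genes of low level such as HNRNPLL.

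Counts were tested with edgeR 4.0.16 in R 4.3.3 (robust quasi-likelihood test, 22 group means over 66 libraries, 44 residual degrees of freedom), with Benjamini-Hochberg adjustment over all tested genes and a threshold of 0.05. Library sizes were the spike-in totals (12515 genes after the filter on low counts), or endogenous totals with TMM factors (12973 genes). Groups came from the labels. The tests were checked on simulated counts. Alternatives were DESeq2 1.42.0, median-of-ratios scaling, other count filters, a replicate block, fits on each line's own libraries and leaving out each library. Within each comparison and scaling the text names up to 3 called genes with the lowest and up to 3 with the highest log2 change, the genes with the most and fewest calls, and close paralogs; other genes were chosen after their values were seen. The members and lists were chosen with earlier results of these data known. Gene positions are from GENCODE 29 and promoter sequences from RefSeq.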

Additional observations from a re-analysis of the deposited data

Results flagged for a closer look

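Effects of treatment that differed between cell lines by a test of the difference itself drew attention. Between MED14-tagged and wild-type cells the response to dTAG7 was unequal for 32 of the 32 genes with spike-in scaling (56.7% of all tested genes lower, 0.647% higher) and for 7 under TMM (10.4% lower, 6.03% higher). The MED14 effect differed from the CDK9 effect for 32 genes with spike-in scaling (0.128% lower, 88.3% higher) and for 23 under TMM (15% lower, 20% higher). The CDK9 effect differed from the THAL-SNS-032 effect for 1 gene with spike-in scaling (2.33% lower, 0.439% higher) and for 3 under TMM (3.74% lower, 1.87% higher). The spike-in count is near its background and was 0 to 2 when a library was left out, so it is no result about these genes. Among the 8 Mediator lines the dTAG7 effect differed for 27 genes with spike-in scaling (45.6% of all tested genes) and for 7 under TMM (12.5%).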

How the results depend on the processing

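Of the 32 genes, TMM called 11 in the MED14 line, 9 in the MED6 line, 8 in the MED31 line, 3 in the MED12 line, 15 with THAL-SNS-032, 19 with dBET6, 7 for MED14 against wild type, 3 for CDK9 against THAL-SNS-032, 2 for dBET6 against THAL-SNS-032, 7 in the test among Mediator lines and 6 in that among DMSO groups. Median-of-ratios scaling gave, in the same order, 11, 9, 8, 3, 14, 18, 8, 3, 2, 7 and 4. The share of all genes called was not determined for median-of-ratios scaling. For TMM it stands with each result above. The TMM count was near its background in the MED12 line (5.61% lower, 2.96% higher) and below it among DMSO groups (26.5%). These log2 changes turned from negative with spike-ins to positive: in the MED14 line TRA2A 0.31, SRSF5 0.20 and SRSF11 0.17 (median-of-ratios 0.35, 0.24 and 0.21); in the CDK9 line HNRNPA3 1.28, HNRNPA1 1.04 and HNRNPA2B1 1.01 (1.41, 1.16 and 1.14); with THAL-SNS-032 HNRNPA3 0.82, SRSF11 0.59 and HNRNPC 0.60 (0.90, 0.67 and 0.68); and with dBET6 HNRNPA3 0.94, HNRNPC 0.74 and HNRNPA2B1 0.71 (1.10, 0.89 and 0.87). Each line's own libraries gave 3 in the MED6 line (TMM 1), 6 in the MED28 line (TMM 8), 24 in the MED10 line, 11 in the MED26 line, 0 in the MED12 line (TMM 0), 17 under TMM in the MED14 line, 1 under TMM in the MED1 line and 0 for CDK9 against THAL-SNS-032, with fewer samples in each fit. For these fits the share of all genes called was not determined. No count filter gave 0 for CDK9 against THAL-SNS-032, and so did the replicate block. Same-lettered libraries did not deviate together (correlations -0.217 to 0.0554). The labels do not state whether the letters pair wells, and these correlations cannot settle it. Leaving out each library gave 31 to 32 calls in the MED14 line (TMM 7 to 10), 7 to 22 in the MED6 line (TMM 4 to 15), 8 to 12 in the MED10 line (TMM 7 to 9), 4 to 6 in the MED26 line (TMM 3 to 5), 2 to 5 in the MED31 line (TMM 4 to 7), 1 to 2 in the MED28 line, 0 to 2 in the MED12 line and 0 to 2 for CDK9 against THAL-SNS-032. The cause was not tested.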
